A study of Mus musculus with 18 samples.

Results

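The numbered zinc finger genes Zfp600 to Zfp999 were followed across bone marrow, intestine and testes of mice that carry an inducible histone H3 transgene. Members were the genes whose symbol is Zfp followed by a number from 600 to 999 and that had at least 20 counts summed over the 18 libraries, with 7 symbols left out by name (Zfp979, Zfp980, Zfp981, Zfp982, Zfp984, Zfp990 and Zfp992). Of 163 symbols in this range in the files, 149 were members, among 37620 gene identifiers in all and 24215 that reached the same count minimum. The 7 genes under the minimum held 0 to 8 counts each (the nearest was Zfp663 with 8), and the members nearest above it were Zfp640 and Zfp683 with 28 counts each and Zfp872 with 38. All animals were C57B6/129 hybrid mice, male and female, given 2 mg/ml doxycycline in drinking water from 6 to 8 weeks of age to switch on a transgene for H3 that was unmodified (WT), had lysine 9 changed to methionine (K9M) or had lysine 36 changed to methionine (K36M). The WT animals thus also carried an induced H3 transgene and received doxycycline. RNA with polyA tails was taken from lineage-negative, cKit-positive marrow cells, from dissociated intestinal cells and from dissociated testes cells, with 2 libraries in each of the 9 tissue and genotype groups. One set of 6 mice gave both intestine and testes, so these were male, and another set of 6 gave marrow. Sex may therefore differ between the marrow libraries and the others, and its part in differences between tissues was not tested. In the text the WT mice of the first set are called A and B and those of the second set C and D, and the mutant mice go by the numbers in the labels.

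Zinc finger proteins of this kind typically bind DNA through tandem C2H2 fingers. Many also carry a KRAB domain, which recruits Trim28 (KAP1) and through it the H3K9 methyltransferase Setdb1, a route best known for silencing retroelements. Their genes often lie in clusters of near copies, and the 3′ ends of such genes are known to carry both H3K9 and H3K36 methylation. Changing lysine to methionine at either position is known to block methylation of that residue on other H3 molecules.

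Of the 146 members with an annotated coding sequence, 89 (61.0%) held a KRAB pattern and 57 did not. Among the 187 numbered Zfp genes below 600 with a coding sequence, 66 (35.3%) held it. The median number of C2H2 patterns was 12 in members with a KRAB pattern and 7 in the others. In 6 of the 146 members no C2H2 pattern was found, since members were chosen by symbol alone. In the order of coding genes, 63 members lay in 13 runs. A run on chromosome 17 held 12 members, among them Zfp820, Zfp946, Zfp760 and Zfp983, and one on chromosome 4 held 10, among them Zfp985, Zfp993, Zfp988 and Zfp986. All 7 symbols left out by name lie in this chromosome 4 run, which would hold 17 genes with them, so its counts and summed levels below lack them. For 24 members more than 25% of the 50-base words of the longest transcript also occurred in transcripts of another gene, and the reads of these may be split or lost. Zfp708 (100%), Zfp987 (92.1%), Zfp993 (86.8%) and Zfp986 (86.4%) were among them, so their values are uncertain.

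Promoter sequence is shown for 5 members that differ in the results below, to set their start sites side by side. RefSeq windows (build GRCm38.p6, 300 bases around a start site) were matched by symbol for 127 members, with 155 windows. Capitals mark the CCAAT motif, searched on both strands as CCAAT and ATTGG. Zfp868 (chr8:69625499-69625798, minus strand) rose in K9M marrow, Zfp667 (chr7:6286330-6286629, plus strand) stood out in K9M intestine, Zfp820 (chr17:21845710-21846009, minus strand) fell in K36M testes, and the neighbours Zfp777 (chr6:48047745-48048044, minus strand) and Zfp956 (chr6:47953140-47953439, plus strand) parted in K36M testes.
Zfp868: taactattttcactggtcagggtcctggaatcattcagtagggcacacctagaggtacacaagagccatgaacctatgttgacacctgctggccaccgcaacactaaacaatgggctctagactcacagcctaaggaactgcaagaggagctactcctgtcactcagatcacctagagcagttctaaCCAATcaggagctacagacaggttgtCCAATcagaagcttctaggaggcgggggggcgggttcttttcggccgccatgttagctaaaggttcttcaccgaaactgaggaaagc
Zfp667: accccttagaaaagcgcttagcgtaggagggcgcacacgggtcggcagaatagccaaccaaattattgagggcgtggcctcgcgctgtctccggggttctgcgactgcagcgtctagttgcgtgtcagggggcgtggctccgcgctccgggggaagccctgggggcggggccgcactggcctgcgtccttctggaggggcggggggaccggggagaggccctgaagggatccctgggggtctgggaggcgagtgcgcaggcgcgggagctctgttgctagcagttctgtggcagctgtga
Zfp820: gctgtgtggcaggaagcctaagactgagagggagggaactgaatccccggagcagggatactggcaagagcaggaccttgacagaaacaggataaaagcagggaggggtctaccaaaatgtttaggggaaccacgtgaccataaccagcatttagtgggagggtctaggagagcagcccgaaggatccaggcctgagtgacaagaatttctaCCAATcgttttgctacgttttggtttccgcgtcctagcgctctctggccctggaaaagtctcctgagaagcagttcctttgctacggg
Zfp777: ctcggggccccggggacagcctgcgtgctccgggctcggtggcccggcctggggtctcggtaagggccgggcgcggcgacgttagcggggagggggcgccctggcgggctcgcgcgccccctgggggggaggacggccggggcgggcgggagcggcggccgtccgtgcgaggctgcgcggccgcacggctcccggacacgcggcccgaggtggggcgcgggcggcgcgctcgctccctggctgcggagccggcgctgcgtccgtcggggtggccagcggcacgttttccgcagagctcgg
Zfp956: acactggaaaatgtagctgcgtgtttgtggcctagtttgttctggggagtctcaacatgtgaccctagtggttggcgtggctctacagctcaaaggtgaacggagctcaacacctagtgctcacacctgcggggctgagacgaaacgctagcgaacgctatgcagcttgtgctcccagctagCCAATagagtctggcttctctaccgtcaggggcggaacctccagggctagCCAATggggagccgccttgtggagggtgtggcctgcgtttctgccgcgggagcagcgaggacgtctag
The Zfp868 and Zfp956 windows held 2 CCAAT motifs each and the Zfp820 window held 1, while those of Zfp667 and Zfp777 held 0. Zfp868 has another RefSeq window that held 0. CG dinucleotides numbered 51 in the Zfp777 window, 25 in that of Zfp667, 16 in that of Zfp956, 9 in that of Zfp820 and 6 in that of Zfp868 shown here. The other Zfp868 window held 29. CCAAT was present in 56.8% of member windows, in 68.8% of those with a KRAB pattern and in 34.5% of those without, against 37.4% of all 32851 windows. TATAAA, searched on both strands, was present in 5.16% of member windows and 13.6% of all windows. A match is a description of these letters and not of a bound site.

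Library totals ran from 13396303 to 21417915 counts in genes, and the members took 1612 to 3917 CPM (counts scaled to a common library total) of them. Levels below are CPM on a scale fitted within each tissue, so levels are compared within a tissue only, unless stated. A member is called where edgeR's quasi-likelihood test gave an adjusted p under 0.05 after Benjamini-Hochberg adjustment over all genes tested, and log2 fold changes are given ± SE. Spermatid markers summed to 305 CPM in the intestine library of WT mouse A against 29.6 in that of WT mouse B, and intestinal stem and cycling markers to 280 against 94.9, so counts of called members that rest on it are also given without it.

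In WT mice the members were called between tissues at shares of 78.6%, 82.9% and 67.9% in the comparisons that follow, beside those of all genes. Of 140 members tested, 59 were higher and 51 lower in testes than in intestine, where 83.2% of all genes were called (48.5% higher, 34.6% lower). With scaling by library size alone this split was 72 higher and 40 lower. Against marrow, 46 were higher and 70 lower in testes (84.0% of all genes called, 49.0% higher and 35.0% lower), and 31 were higher and 64 lower in intestine (65.9% of all genes called, 35.7% higher and 30.2% lower). Scaling by library size alone gave 17 higher and 93 lower for intestine against marrow, and moved the median log2 difference of all genes there from 0.11 to -0.50, and for testes against intestine from 0.64 to 1.27. Without the intestine library of WT mouse A, 115 members were called between testes and intestine and 105 between intestine and marrow. Higher than in both other tissues were 39 members in marrow (27.9%, all genes 18.7%), 25 in intestine (17.9%, all genes 22.2%) and 38 in testes (27.1%, all genes 38.1%).

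The members that stood highest in 1 WT tissue are given on a CPM scale fitted over the 6 WT libraries. Zfp936 had 3.66 and 3.62 CPM in testes and 0 counts in both other tissues. Set against a floor of 3 counts over the group, that is at least 29.2-fold higher than in intestine and at least 69.6-fold higher than in marrow. Zfp735 followed the same pattern with 3.19 and 3.48 CPM, at least 26.9-fold above intestine. Both hold a KRAB pattern. Zfp773 led in marrow with 5.28 and 5.03 CPM, against 0.31 and 0.18 in intestine and 0 and 0.09 in testes. Zfp831 was at 9.08 and 12.2 CPM in marrow and at most 2.00 in the other tissues. In intestine Zfp747 stood at 61.7 and 60.4 CPM, against 6.47 and 6.55 in marrow and 0.58 and 0.91 in testes, and 36.9% of its words are shared with other genes. Zfp827, whose product is known to bring the NuRD complex to telomeres, was at 66.3 and 59.1 CPM in intestine, 3.27 and 3.62 in marrow and 7.48 and 8.83 in testes. In none of these members did the leading tissue overlap with another. They were picked for the largest called differences from both other tissues, so this separation follows from the choice. Per kilobase of exon, the highest WT level was that of Zfp706 in marrow (35.7 CPM per kb) and intestine (58.4), and of Zfp654 in testes (78.7).

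**Figure D1:**
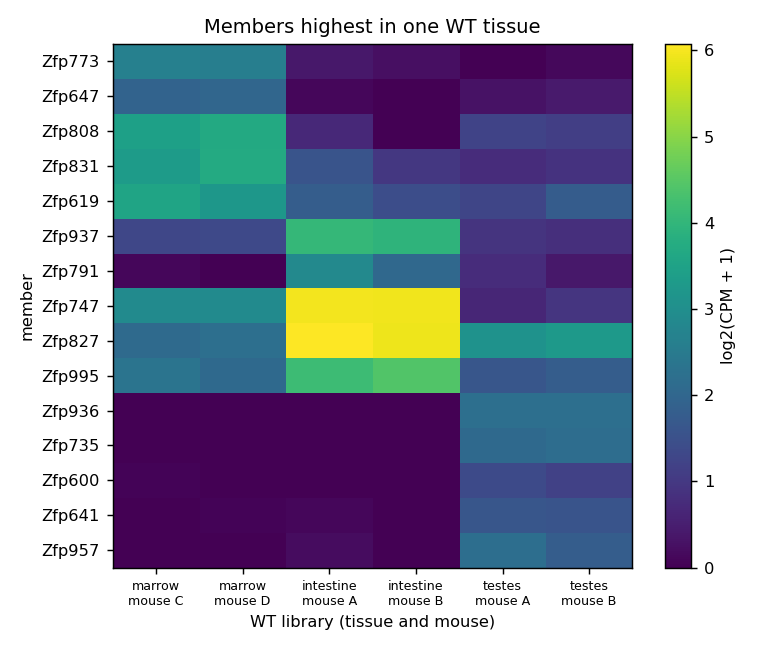
Level of 15 members in the 6 WT libraries, as log2(CPM + 1) on a scale fitted over these libraries; columns are libraries, rows are the 5 members with the largest difference for marrow, intestine and testes in turn. Each block of 5 is bright in the 2 libraries of its own tissue, which follows from this choice of members. Zfp936 and Zfp735 have 0 counts outside testes.

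The K9M transgene was accompanied by few called members. In marrow 2 of 134 tested members rose and 0 fell, where 1.01% of all genes were called (0.589% higher, 0.418% lower). In intestine 0 of 121 members (0.211% of all genes called, 0.147% higher and 0.0632% lower) and in testes 0 of 140 (0.0678% of all genes called, 0.0261% higher and 0.0418% lower) passed edgeR's test. At an unadjusted p under 0.05 edgeR gave 17 higher and 3 lower members in marrow, where 1129 of 14604 genes were higher and 950 lower. In intestine it gave 9 and 5, beside 722 and 747 of 14246 genes. In testes it gave 4 and 6, beside 243 and 296 of 19160 genes. DESeq2 called 2 members in intestine and 2 in testes, with no share of all genes at hand. The median log2 change of the members was 0.09 in marrow, 0.03 in intestine and -0.02 in testes, beside 0.00, -0.01 and 0.01 over all genes.

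Zfp868, a KRAB pattern gene of a run on chromosome 8, had 24.6 and 24.0 CPM in WT marrow, 42.2 and 40.7 in K9M and 25.7 and 25.6 in K36M. The K9M libraries lay above all others, and the change was 0.77 ± 0.09 (adjusted p 0.0080). Zfp951, also with a KRAB pattern, had 1.13 and 2.12 CPM in WT marrow, 7.30 and 6.79 in K9M and 2.63 and 4.10 in K36M. It rose by 2.11 ± 0.35 in K9M (adjusted p 0.035) and by 1.05 ± 0.35 in K36M (adjusted p 0.040). Both mutants lay above WT for Zfp951, and K9M for Zfp868, as the rule for naming members requires. Neither gene was called without K9M mouse 1362 (0 members called) or without K9M mouse 1363 (0 called), and Zfp951 was not called without either K36M mouse (1 called each), nor with K9M and WT fitted alone (1 called, adjusted p of Zfp951 0.054). Granulocyte-monocyte markers summed to 15677 to 16151 CPM in K9M marrow, inside the WT range of 14333 to 18262. Other marker sums lay outside the WT range. Blood stem and progenitor markers were at 2260 to 2350 CPM against 1926 to 2009 in WT, with 1 of 8 called higher, and stroma and muscle markers at 148 to 158 against 98.8 to 127, with 0 of 4 called. The stem and cycling list fixed for intestine was at 2299 to 2420 CPM in K9M marrow against 2512 to 2531, with 1 of 7 called higher. The part of these in the member changes was not tested.

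Zfp667, a KRAB pattern gene with no shared words, had 0.15 and 0.34 CPM in WT intestine, 4.71 and 4.80 in K9M and 0.07 and 0.18 in K36M. Both K9M libraries lay far above the other 4, yet the test within intestine gave 4.31 ± 0.59 with an adjusted p of 0.070. Without WT mouse A it was 3.78 with an adjusted p of 0.37. Adjusted p over the alternatives ran from 5.09e-08 without a filter on low counts to 0.48 without K9M mouse 1516. Goblet and Paneth markers summed to 4206 to 4642 CPM in K9M intestine against 7896 to 9037 in WT, with no overlap, and 1 of 7 was called, higher. Other lists lay outside the WT range as well, among them enteroendocrine markers at 196 to 219 CPM against 148 to 156, with 0 of 6 called. The part of these lists in the Zfp667 difference was not tested. In marrow Zfp667 had 5.54 and 6.12 CPM in WT and 6.50 and 5.79 in K9M, and in testes 19.7 and 18.2 in WT and 19.4 and 18.2 in K9M, so the groups overlapped there. The difference of the K9M effect between tissues was tested over all 18 libraries. It was 4.33 ± 0.53 for intestine against testes (adjusted p 0.0028), the only member called of 146 (0.193% of all genes called, 0.103% higher and 0.0894% lower), and -4.25 ± 0.54 for marrow against intestine (adjusted p 0.0025, 0.452% of all genes called, 0.221% higher and 0.231% lower). Without the intestine library of WT mouse A these were 3.89 (adjusted p 0.024) and -3.81 (adjusted p 0.021), with 1 member called in each. For marrow against testes 0 members were called by edgeR (0.132% of all genes, 0.0565% higher and 0.0753% lower). At an unadjusted p below 0.05 edgeR gave 9 higher and 1 lower, beside 435 and 422 of 21257 genes, and DESeq2 called 2 members. Because each mouse of the first set gave both intestine and testes, these tissues were also fitted with the mouse as a replicate block. In that fit 0 members were called for intestine against testes, and Zfp667 had 4.36 with an adjusted p of 0.20.

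Several members of the chromosome 4 run had low levels in WT and stood higher in K9M without passing the test. Zfp985 had 0.56 and 0.32 CPM in WT marrow and 4.08 and 1.29 in K9M (2.57 ± 0.64, adjusted p 0.15, and 0.030 to 0.43 over the alternatives). In testes it had 0.24 and 0.33 CPM in WT and 1.82 and 1.76 in K9M (2.61 ± 0.34, adjusted p 0.11, and 0.00095 to 1 over the alternatives). Marrow and testes came from different mice, and in both the K9M libraries lay above the WT libraries. Sertoli markers summed to 1077 to 1133 CPM in K9M testes against 922 to 957 in WT, with 0 of 6 called. Other lists lay outside the WT range there too. Among them, spermatid markers were at 14877 to 16234 CPM against 14631 to 14812 (0 of 9 called). Spermatocyte markers were at 6143 to 6359 against 6095 to 6122 (0 of 9 called), and spermatogonia markers at 123 to 125 against 116 to 117 (0 of 8 called). The part of these lists in the member changes was not tested. Zfp986 showed 0.30 and 0.28 CPM in WT testes and 1.72 and 1.27 in K9M (adjusted p 0.45). Its neighbour Zfp933 had 19.4 and 18.4 CPM in WT testes and 11.6 and 10.4 in K9M (-0.78 ± 0.13, adjusted p 0.29). Summed over the run, levels were 28.5 and 23.8 CPM in WT marrow and 35.2 and 37.3 in K9M marrow, but 44.1 and 42.6 in WT testes and 38.2 and 36.8 in K9M testes. The run was singled out after its values were seen, and its near copies share reads.

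**Figure D2:**
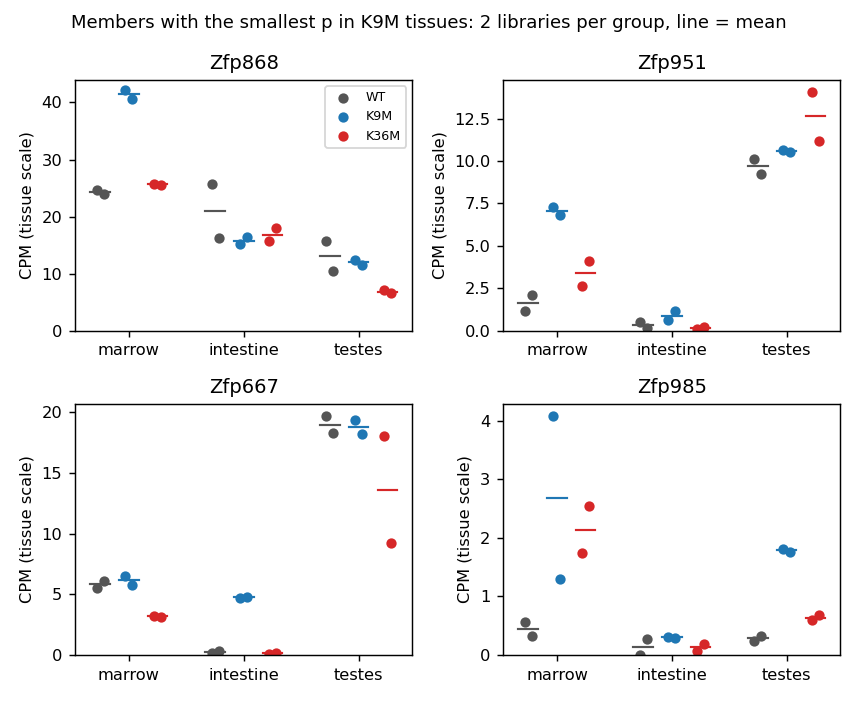
CPM of Zfp868, Zfp951, Zfp667 and Zfp985 in each of the 18 libraries (points; 2 per group, line at the mean), grouped by tissue and coloured by genotype, with each tissue on its own scale. K9M points lie above WT points in marrow for Zfp868 (42.2 and 40.7 against 24.6 and 24.0) and in intestine for Zfp667 (4.71 and 4.80 against 0.15 and 0.34).

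K36M was accompanied by many called members, at a share near that of all genes in each tissue. In marrow 15 of 134 rose and 42 fell (42.5% called; 48.0% of all genes, 23.5% higher and 24.6% lower), in intestine 9 of 121 rose and 19 fell (23.1%; 23.3% of all genes, 11.7% each way) and in testes 29 of 140 rose and 38 fell (47.9%; 49.5% of all genes, 25.7% higher and 23.8% lower). By direction, 31.3% of the members fell in marrow, where 24.6% of all genes and 40.7% of the Zfp genes below 600 did. The median log2 change was -0.15 in marrow, -0.22 in intestine and -0.01 in testes, beside -0.02, -0.02 and 0.02 over all genes. Summed over all members, levels were 3569 and 3534 CPM in WT marrow and 3195 and 3215 in K36M. They were 1662 and 1743 in WT intestine and 1650 and 1528 in K36M, and 3063 and 2994 in WT testes and 2603 and 2403 in K36M. The groups overlapped in no tissue, though those of intestine nearly met. The Zfp genes below 600 summed to 6168 and 6114 CPM in WT marrow against 5726 and 5780 in K36M, and to 6272 and 6285 against 5721 and 5621 in testes. In intestine their sum was higher in K36M, with 2301 and 2515 in WT against 2597 and 2664. Members with a KRAB pattern counted 7 higher and 24 lower of 79 in marrow, 4 and 12 of 69 in intestine and 10 and 21 of 84 in testes. Those without counted 8 and 18 of 53, 5 and 7 of 50, and 19 and 16 of 54.

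**Figure D3:**
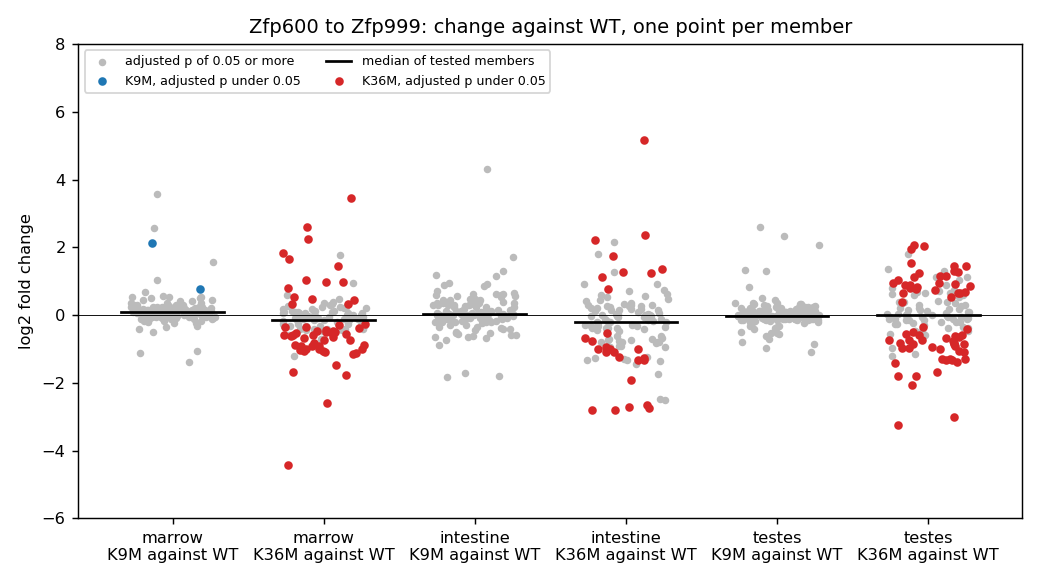
Log2 fold change against WT of each tested member (points), by tissue and mutant; coloured points have an adjusted p under 0.05 and black lines mark the median of tested members. Coloured points number 2, 0 and 0 for K9M and 57, 28 and 67 for K36M in marrow, intestine and testes.

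These counts changed with the libraries in the fit, also with those of K9M, which are not part of the comparison. Each such fit has fewer residual degrees of freedom, and in testes the count could also rise. In marrow 31 members were called without K36M mouse 1312. In intestine 7 were called without WT mouse A, 4 without WT mouse B, 14 without K9M mouse 1516 and 13 without K9M mouse 1519. In testes 19 were called without WT mouse A, 17 without WT mouse B and 44 without either K9M mouse. Cell type markers moved with the genotype as well. In K36M marrow 7 of 8 granulocyte-monocyte markers fell (14333 to 18262 CPM summed in WT, 3539 to 4716 in K36M) and 6 of 8 erythroid markers rose (914 to 1447 against 2342 to 2428). There 4 of 8 blood stem and progenitor markers fell and 2 rose (1926 to 2009 against 1286 to 1309), 5 of 7 stem and cycling markers rose and 3 of 4 tested stroma and muscle markers rose. In K36M intestine 4 of 7 goblet and Paneth markers fell and 1 rose (7896 to 9037 CPM in WT, 617 to 955 in K36M). All 6 tested T, NK and B lymphocyte markers fell there (299 to 313 against 29.5 to 39.2). Of the enteroendocrine markers 2 of 6 rose and 1 fell, and of the enterocyte markers 3 of 8 fell. In K36M testes 7 of 9 spermatid markers rose (14631 to 14812 CPM in WT, 29008 to 42238 in K36M), 6 of 9 spermatocyte markers fell and 1 rose (6095 to 6122 against 5072 to 5260), all 6 Sertoli markers in the files rose (922 to 957 against 2376 to 3244) and 5 of 6 Leydig markers fell (374 to 471 against 49.7 to 69.5). Spermatogonia markers there rose for 4 of 8 and fell for 1, and stroma and muscle markers rose for 5 of 8 and fell for 2. No marker in these lists was at 0 in all libraries of its own tissue. The part of cell composition in the changes was not tested, and in bulk samples fewer cells of a type and less RNA per cell cannot be told apart.

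In K36M marrow the largest fall was that of Zfp618, a partner of the hydroxymethylcytosine reader Uhrf2. It had 1.92 and 1.70 CPM in WT and 0.15 and 0 in K36M, 78 counts against 3, a ratio of 23.1 with a 95% counting interval of 7.61 to 114. Zfp704 fell from 121 and 116 CPM to 41.7 and 44.0 (-1.47 ± 0.09, adjusted p 4.5e-05), while K9M held 132 and 155. Zfp760, of the chromosome 17 run, fell from 39.3 and 37.1 to 16.9 and 17.9 CPM (-1.14 ± 0.09, adjusted p 9.8e-05). Zfp827 (-2.59 ± 0.30), Zfp697 (-1.76 ± 0.26) and Zfp931 (-1.68 ± 0.22) also fell, with adjusted p of 0.00040 to 0.0013. Zfp831, which led in WT marrow, rose from 12.1 and 16.2 to 27.0 and 28.9 CPM (0.98 ± 0.15, adjusted p 0.0015), and Zfp808 from 13.1 and 15.8 to 29.3 and 27.1 (0.96 ± 0.13, adjusted p 0.00092), with 43.1% of its words shared. Zfp985 had 1.74 and 2.55 CPM in K36M (2.26 ± 0.64, adjusted p 0.024) and Zfp993 3.92 and 2.05, against 1.03 and 0.87 in WT (1.65 ± 0.40, adjusted p 0.011). K9M held 3.39 and 2.30 CPM of Zfp993, above WT as for Zfp985, without passing the test (adjusted p 0.15). Zfp941 rose from 1.17 and 1.98 to 4.86 and 3.77 CPM. Of these 12 named calls (Zfp951 included), Zfp985 was lost without WT mouse C, WT mouse D, K36M mouse 1310 or K36M mouse 1312 (adjusted p up to 0.11). Zfp951 was lost without WT mouse C, K36M mouse 1312 or either K9M mouse, and with K36M and WT fitted alone. Zfp941 and Zfp993 were lost without K36M mouse 1310.

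In K36M intestine Zfp950 fell from 25.8 and 33.0 CPM to 5.38 and 3.46 (-2.74 ± 0.27, adjusted p 0.0024), with K9M at 25.6 and 26.7. Zfp983 fell from 5.87 and 6.65 to 1.27 and 0.73 CPM (-2.65 ± 0.40, adjusted p 0.0080). Zfp605, Zfp708, Zfp760 and Zfp931 also fell, by -2.81, -2.73, -1.91 and -2.81 on the log2 scale. Zfp983 and Zfp760 belong to the chromosome 17 run, where 4 of 12 fell and 0 rose (11.7% of all genes fell and 11.7% rose). Among the rises, Zfp809, known for silencing retroviruses through their primer binding site, went from 10.4 and 10.2 to 27.7 and 25.5 CPM (1.36 ± 0.17, adjusted p 0.0046). K9M intestine had 15.3 and 16.7 CPM of it, between both groups (adjusted p 0.28). Zfp956 rose from 5.68 and 4.41 to 30.8 and 16.4 CPM (2.22 ± 0.36, adjusted p 0.0094), and its neighbour Zfp777 from 13.7 and 10.3 to 29.0 and 23.0 (1.11 ± 0.23, adjusted p 0.018). Zfp623, Zfp653 and Zfp958 rose by 1.27, 1.75 and 1.25. Without WT mouse A the calls of Zfp605, Zfp623, Zfp653, Zfp708, Zfp760, Zfp777, Zfp931 and Zfp958 were lost (adjusted p 0.054 to 0.14). Without WT mouse B those of Zfp605, Zfp653, Zfp708, Zfp760, Zfp777, Zfp931, Zfp956 and Zfp958 were lost (0.053 to 0.18). Zfp950, Zfp983 and Zfp809 were called without any 1 library. Zfp708, Zfp931 and Zfp958 were lost without K9M mouse 1516, the same and Zfp777 without K9M mouse 1519. Zfp931 and Zfp958 were lost without K36M mouse 1485, and Zfp931 without K36M mouse 1553. With K36M and WT fitted alone Zfp708, Zfp777 and Zfp958 were lost, and with scaling by library size alone Zfp931.

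In K36M testes Zfp820, a KRAB pattern gene of the chromosome 17 run, fell from 67.2 and 52.7 CPM to 7.68 and 5.05 (-3.23 ± 0.26, adjusted p 0.0024), with K9M at 60.4 and 45.0. In marrow and intestine it was not called. Zfp646 had 340 and 336 CPM in WT and 156 and 39.0 in K36M (-1.79 ± 0.57, adjusted p 0.039), and Zfp956 105 and 107 in WT and 47.2 and 13.3 in K36M (-1.81 ± 0.51, adjusted p 0.028). For both the K36M libraries differed widely, with mouse 1553 the lower, the mouse that also had the higher spermatid sum. Without mouse 1553 the changes were -1.14 for Zfp646 and -1.19 for Zfp956, and without mouse 1485 they were -3.16 and -3.04. Zfp608, known to repress the Rag genes in thymocytes, fell from 80.4 and 73.4 to 37.5 and 20.4 CPM (-1.41 ± 0.27), and Zfp661 and Zfp977 fell by -1.68 and -2.05. Zfp777 rose from 5.76 and 6.89 to 19.2 and 17.8 CPM (1.54 ± 0.16, adjusted p 0.0024). In the run of 4 on chromosome 6, Zfp777 therefore rose while Zfp956 and Zfp746 (-0.84 ± 0.17) fell. Zfp641, highest in testes among WT tissues, rose from 2.16 and 2.06 to 7.08 and 9.37 CPM (1.96 ± 0.25). Zfp948, Zfp970, Zfp697 and Zfp946 rose by 2.05, 2.07, 1.44 and 1.44. In the chromosome 17 run, Zfp948, Zfp946 and Zfp945 (1.15) thus rose. Zfp820, Zfp944 (-0.82), Zfp758 (-0.72), Zfp942 (-0.60) and Zfp943 (-0.55) fell, where 25.7% of all genes rose and 23.8% fell. Summed over its 12 members, this run went from 179 and 167 CPM in WT testes to 119 and 105 in K36M. Zfp646 and Zfp956 were not called without either K9M mouse, without WT mouse A or WT mouse B, with K36M and WT fitted alone, or without a filter on low counts (adjusted p up to 0.21). Without WT mouse A the calls of Zfp608, Zfp661, Zfp697, Zfp970 and Zfp977 were lost too, and without WT mouse B those of Zfp661, Zfp970 and Zfp977.

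Over the tissues, 116 members were tested in all 3. Of these 27 (23.3%) were called in no K36M tissue, 54 (46.6%) in 1, 28 (24.1%) in 2 and 7 (6.03%) in 3. Over the 11754 genes tested in all 3 the shares were 20.2%, 41.3%, 31.4% and 7.08%. Zfp638, whose product is known to silence unintegrated retroviral DNA with the HUSH complex, fell in each. It had 190 and 181 CPM in WT marrow and 149 and 127 in K36M (-0.43 ± 0.09), 42.0 and 42.6 in WT intestine and 19.8 and 22.6 in K36M (adjusted p 0.0080), and 118 and 122 in WT testes and 52.5 and 43.0 in K36M (-1.33 ± 0.14). Zfp827 fell in each too, by -2.59, -0.95 and -0.98 in marrow, intestine and testes, as did Zfp708, all of whose words are shared with another gene. Zfp628, reported as needed for spermiogenesis, rose in each, by 0.32 ± 0.10, 0.76 ± 0.20 and 0.69 ± 0.15. Zfp710, Zfp946 and Zfp623 were called in all with mixed directions. Zfp710 fell in marrow (84.8 and 70.9 to 39.9 and 35.5 CPM) and intestine and rose in testes (6.66 and 5.30 to 10.9 and 13.6). Among 129 members tested in marrow and testes, which came from different mice, 14 (10.9%; 8.06% of all genes tested in both) were lower in marrow and higher in testes, out of 40 lower in marrow and 27 higher in testes. Lower in both were 9 (6.98%; 5.31% of all genes). Among 117 tested in marrow and intestine, 12 (10.3%; 4.96% of all genes tested in both) were lower in both, 30.8% of those lower in marrow and 63.2% of those lower in intestine. For all genes these shares were 19.9% and 42.5%. The members were chosen with earlier results known, and no test of these overlaps was made.

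**Figure D4:**
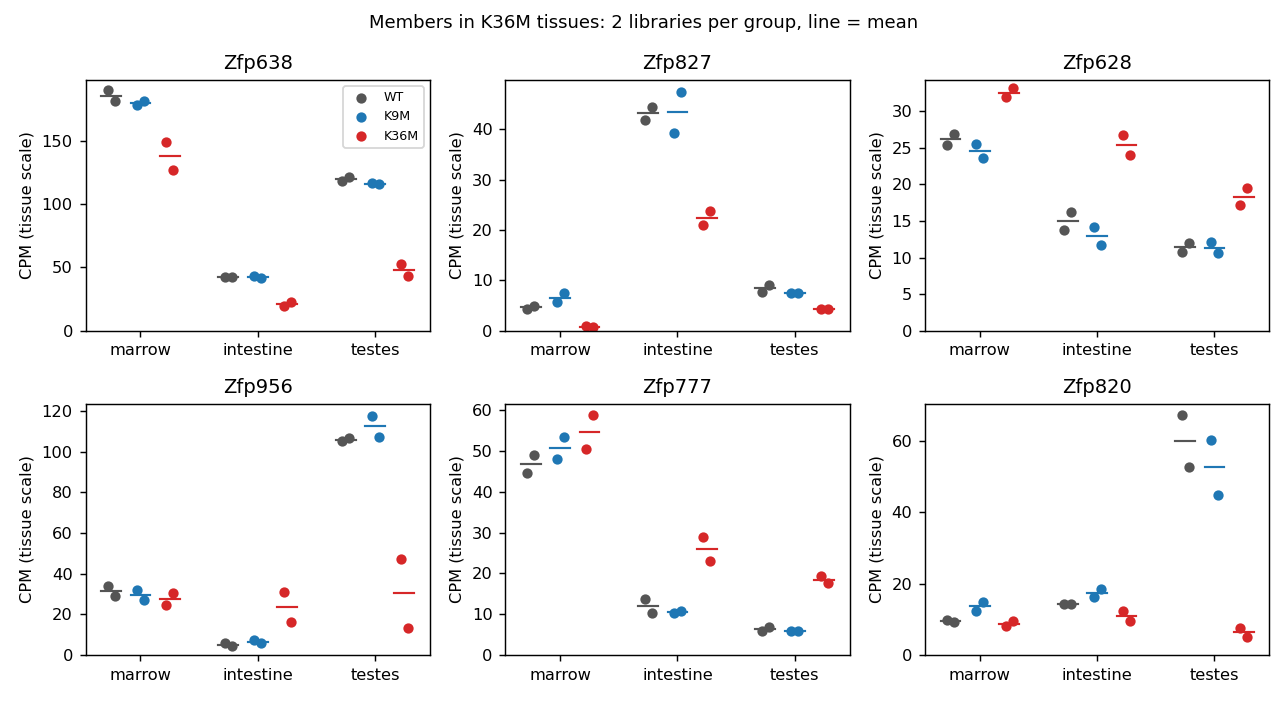
CPM of 6 members in each of the 18 libraries (points; 2 per group, line at the mean), grouped by tissue and coloured by genotype, each tissue on its own scale. Zfp638 and Zfp827 are lower and Zfp628 higher in K36M in all 3 tissues, while Zfp956 is higher in K36M intestine (30.8 and 16.4) and lower in K36M testes (47.2 and 13.3) than in WT.

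**Figure D5:**
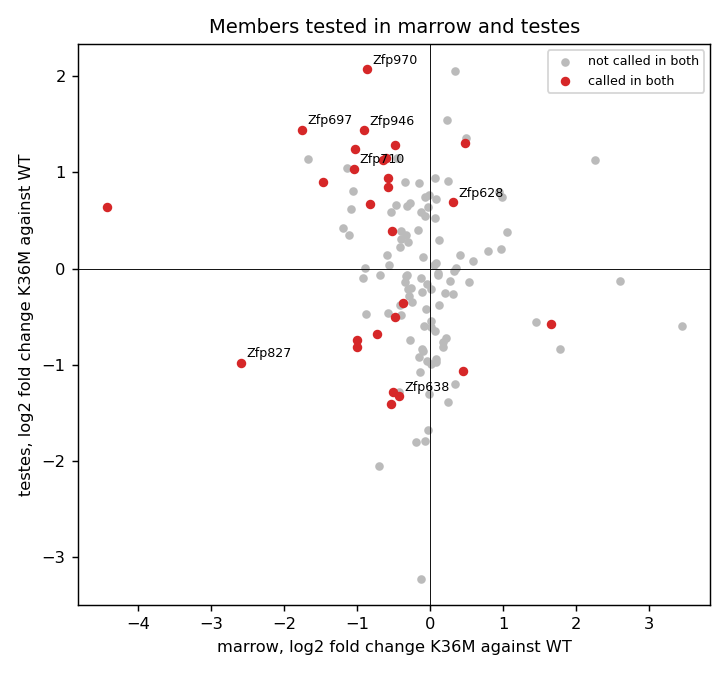
Log2 fold change of K36M against WT in marrow (horizontal) and testes (vertical) for the 129 members tested in both; red points were called in both tissues. The upper left part holds the 14 members called lower in marrow and higher in testes, with Zfp970, Zfp697, Zfp946 and Zfp710 named.

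Differences of the K36M effect between tissues were tested directly over the 18 libraries. For intestine against testes 16 of 146 members were higher and 33 lower (33.6%; 26.0% of all genes called, 11.1% higher and 14.9% lower). With the mouse as a replicate block this was 10 higher and 14 lower, and scaling by library size alone gave 20 higher and 26 lower. Without the intestine library of WT mouse A it was 17 higher and 28 lower. Zfp956 differed by 3.93 ± 0.66 (adjusted p 0.00095, with the block 0.0021) and Zfp950 by -3.60 ± 0.45 (adjusted p 0.00011, with the block 0.011). For marrow against testes 19 were higher and 28 lower (32.2%; 24.8% of all genes called, 12.7% higher and 12.1% lower). Zfp820 differed by 3.17 ± 0.35 (adjusted p 5.8e-05) and Zfp697 by -3.13 ± 0.55 (adjusted p 0.0014). The count was 27 without WT marrow mouse C, 26 without K36M marrow mouse 1310, 27 without the WT testes library of mouse A and 28 without the K36M testes library of mouse 1553. For marrow against intestine 14 were higher and 8 lower (15.1%; 17.2% of all genes called, 9.81% higher and 7.44% lower), and library size alone gave 9 and 12, RLE size factors 12 and 11. Zfp831 differed by 3.71 ± 0.65 (adjusted p 0.0014) and Zfp605 by 2.67 ± 0.50 (adjusted p 0.0023). This count was 14 without WT marrow mouse C, K36M marrow mouse 1310 or K36M marrow mouse 1312. Without the intestine library of WT mouse A it was 11 higher and 12 lower.

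K9M and K36M were also compared with each other, which shares the mutant libraries with the comparisons above. In marrow 52 members were higher and 14 lower in K9M (49.3%; 53.8% of all genes called, 27.8% higher and 26.0% lower), in intestine 26 and 9 (28.9%; 25.1%, 12.9% higher and 12.2% lower) and in testes 36 and 30 (47.1%; 49.2%, 23.9% higher and 25.4% lower). Zfp882 stood at 1.81 and 2.57 CPM in K9M intestine and 0.07 and 0.49 in K36M, while WT held 1.75 and 1.56. Zfp619 had 1.10 and 1.31 CPM in K9M testes and 5.10 and 3.76 in K36M, with 1.44 and 2.49 in WT. The call of Zfp619 was lost without either K9M mouse. That of Zfp882 was lost without either K9M mouse, without WT mouse B and with K9M and K36M fitted alone. Without K9M mouse 1516 the counts were 4 in intestine and 0 in testes, and without K9M mouse 1519 they were 2 and 15. Without the intestine library of WT mouse A, 20 were higher and 7 lower in K9M intestine, and Zfp882 was not called (adjusted p 0.056).

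Of 23 listed genes of the KRAB corepressor pathway, 15 rose and 3 fell in K36M marrow, where 23.5% of all genes rose and 24.6% fell. Trim28 went from 636 and 654 to 731 and 766 CPM (0.21 ± 0.06, adjusted p 0.014), Setdb1 from 151 and 162 to 218 and 247 (0.57 ± 0.08, adjusted p 0.0011) and the NuRD helicase Chd3 from 103 and 117 to 277 and 266 (1.30 ± 0.08). Chd3 was also the 1 listed gene that rose in K9M marrow, with 157 and 152 CPM (0.49 ± 0.08, adjusted p 0.032). In K36M testes 2 rose and 13 fell, where 25.7% of all genes rose and 23.8% fell. There Trim28 went from 433 and 436 to 251 and 193 CPM (-0.97 ± 0.16, adjusted p 0.0056) and Setdb1 from 94.9 and 97.5 to 58.8 and 38.9 (-0.98 ± 0.20, adjusted p 0.0089), while Atrx, a chromatin remodeller, rose from 27.1 and 30.0 to 63.5 and 80.1 (1.33 ± 0.15). Fam208a, the HUSH subunit also named Tasor, fell in K36M in all 3 tissues, by -0.36 ± 0.07 in marrow, -0.73 ± 0.18 in intestine and -1.30 ± 0.17 in testes. In K36M intestine Fam208a was the only listed gene of 21 tested that fell. In K9M intestine and testes 0 of 21 and 0 of 23 listed genes were called by edgeR.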

How the data were processed

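Counts per gene were deposited as whole-number read counts, 1 file per library, per the file headers and values. The submitters' processing notes name STAR, HTSeq and mm9, with no role for each; versions and strand setting are not given in the sources used here, so reads of overlapping or antisense genes cannot be told apart. The 5 entries that name no gene were left out of library sizes; reads without a feature made up 9.89 to 26.0% and reads without a unique position 15.3 to 29.1%, which bears on near copies. Gene names and transcripts came from GENCODE M21 (GRCm38), and 32897 of 37620 identifiers had a name. Gene order, runs and exon lengths were read from its coordinates, and the promoter windows are on GRCm38.p6. Both are another build than mm9.

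Within each tissue the 3 genotypes were fitted together with edgeR 4.0.16 (R 4.3.3; TMM, filterByExpr, robust quasi-likelihood fit, 3 residual degrees of freedom), WT tissues in 1 fit and differences of effects over all 18 libraries; SE is the log2 change over the square root of F. After the filter 134 members were tested in marrow, 121 in intestine and 140 in testes. Named members were, per mutant and tissue, up to 6 largest called changes each way with mean log2 CPM of at least 0 and both mutant libraries beyond both WT libraries, or the 3 smallest p where under 3 were called; 3 each way between mutants, 2 each way between tissue effects and 5 per WT tissue. Zfp638, Zfp708, Zfp628, Zfp710, Zfp746, Zfp706, Zfp654, their summed levels and the chromosome 4 run were named after their values were seen. The same holds for Zfp758, Zfp942, Zfp943, Zfp944, Zfp945 and the summed level of the chromosome 17 run. Members and lists were chosen with earlier results of these data known. The KRAB pattern was loosened after seeing which members matched it. Alternatives were DESeq2 1.42.0, other scalings, no filter, 2 genotypes alone, each library left out and the mouse as a block. The labels give intestine and testes the same mouse numbers, which pairs them; deviations of same-numbered libraries correlated at 0.03 (WT), 0.07 (K9M) and -0.01 (K36M) over 20253 genes. The result of 1 gene of the corepressor list is counted in its totals and not otherwise reported here. P-values rest on the spread between the 2 libraries of each group in the fit, with information shared over genes. Groups outside a comparison thus also enter its p-values. Intervals cover counting error only.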

Additional observations from a re-analysis of the deposited data

Results flagged for a closer look

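Effects that differed between tissues by a direct test are collected here, as log2 differences from the fit over 18 libraries. For K9M, 1 member differed between intestine and testes and 1 between marrow and intestine, in both cases Zfp667 (4.33 and -4.25). With the mouse as a replicate block the first was not called (adjusted p 0.20).

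For K36M, 49 of 146 members differed between intestine and testes (26.0% of all genes did), 24 with the mouse as a block, among them Zfp931 (-4.04), Zfp950 (-3.60), Zfp956 (3.93) and Zfp750 (5.31). Zfp750, known for epidermal differentiation, was under the count filter in intestine, and its call was lost under DESeq2 (adjusted p 0.079), without a filter (0.076), with the block (0.17) and without most single libraries, up to 0.25 without the K36M intestine library of mouse 1553. Between marrow and testes 47 differed (24.8% of all genes did), among them Zfp618 (-4.96), Zfp697 (-3.13), Zfp820 (3.17) and Zfp988 (4.08). Zfp988 shares 68.1% of its words with other genes, and its call was lost without WT marrow mouse C, WT marrow mouse D, K36M marrow mouse 1312, WT testes mouse A or K36M testes mouse 1553 (adjusted p 0.052 to 0.080). Between marrow and intestine 22 differed (17.2% of all genes did), among them Zfp618 (-3.87), Zfp970 (-2.51), Zfp605 (2.67) and Zfp831 (3.71). Zfp618 was lost there without K36M marrow mouse 1312 or K36M intestine mouse 1485, and Zfp970 without either of these, K36M marrow mouse 1310, WT marrow mouse C or WT intestine mouse B (adjusted p up to 0.12).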

How the results depend on the processing

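No value of a member named by the rule above reversed direction under the alternatives run. The balance of called members turned for the K36M effect in marrow against intestine, from 14 higher and 8 lower to 9 and 12 with library size alone and to 11 and 12 without the intestine library of WT mouse A. Besides the shifts given for the WT tissues, another scaling moved the median log2 value of all genes by -0.33 to 0.27. Of 264 alternative counts of called members, 218 stayed within 1.5 times the reported count and 46 did not; of 1005 alternative values for named members, 861 kept their side of the threshold, 123 lost the call and 21 gained it. Without a filter on low counts, K9M calls numbered 6 in marrow, 3 in intestine and 1 in testes. DESeq2 called 2 K9M members in intestine and 2 in testes, and for K9M effects that differ 6 (intestine against testes), 2 (marrow against testes) and 3 (marrow against intestine); RLE size factors gave 2 for the first. With the 2 genotypes alone, K9M calls numbered 1 in marrow, 1 in intestine and 6 in testes, and K36M calls 14 in intestine and 44 in testes. With the mouse as a replicate block, 0 K9M and 24 K36M effects differed between intestine and testes, and the WT comparison of these tissues gave 103; the pairing changed no other count by over 1.5 times. Leaving out 1 library gave these ranges of called members. In the order marrow, intestine, testes, the ranges for K9M against WT were 0 to 2, 0 to 1 and 0 to 6 (the 6 without either K36M mouse). For K36M against WT they were 31 to 56, 4 to 30 and 17 to 90, and for K9M against K36M 45 to 66, 2 to 35 and 0 to 90. For WT tissues they were 93 to 115 (testes against intestine), 88 to 129 (testes against marrow) and 75 to 105 (intestine against marrow). For effects that differ they were, in K9M, 1 to 3 (intestine against testes), 0 to 0 (marrow against testes) and 1 to 2 (marrow against intestine), and in K36M 35 to 56, 26 to 53 and 14 to 30. Each fit without 1 library has fewer libraries, and the cause of these shifts was not tested. A group of 2 libraries leaves 1 when a library is left out, and that library is assumed to vary like the others. Members of low counts were not tested within a tissue at this depth, among them in intestine those of the chromosome 4 run other than Zfp991 and Zfp933.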
